A study of Solanum tuberosum with 100 samples.

Results

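The 200 potato genes described here are those whose transcript level differed most between half-sib families. They were chosen by their measured values: of 25163 genes in the count table, 17203 averaged at least 1 CPM (counts per 1000000 counts of the library), and the 200 with the largest share of variance between families were taken. The share is the between-family sum of squares of log2(CPM+1) divided by the total sum of squares. It therefore describes the choice and is given with no test. A family consists of the sequenced progeny of 1 cross, and the 11 crosses had Crop52 as common parent. The second parent was V390 for family 2121, Admiral for 2155, Dolce Vita for 2158, Driver for 2159 and Crop18 for 2165. It was Moonlight for family 2168, Red Rascal for 2170, Summit Russet for 2172, Crop9 for 2175, Crop37 for 2177 and Crop58 for 2183.

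RNA came from tubers hit by a falling lead weight and sampled 2 h later, with 1 library for each of 100 genotypes and tissue of several tubers pooled per library. Family size ran from 5 (2183) to 16 samples (2159), with 13 in 2158, 11 in 2121, 10 in 2155, 9 in 2165, 8 each in 2170 and 2175, 7 each in 2168 and 2172 and 6 in 2177. The submitters had put 33 samples in a high-bruising group and 41 in a low-bruising group and used 26 in neither. The genotypes had passed field selection in a breeding programme, their tubers had been kept in cold storage, and no unbruised tuber was sequenced. The labels name no harvest, bruising or sequencing day for a family, so genotype and anything done family by family cannot be told apart in any difference between families below. Total counts lay between 6832655 and 41650152 per sample, and the family medians were lowest in 2183 and highest in 2177, at 10402267 and 32098214. The 9 genes taken as markers of tuber storage tissue (patatins, starch enzymes and Kunitz-type inhibitors) were all in the table. Of these, 8 had a median above 200 CPM, the lowest of the 8 at 226 CPM, whereas 1 patatin gene had a median of 3.25 CPM.

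Cultivated potato is an outcrossing autotetraploid, so each parent carries several alleles of a gene and passes on a sample of them. Full siblings share both parents, and families with a common parent differ on average by the alleles of the other parent. Transcript level can be inherited through variants in a gene's own regulatory sequence, through variants in a regulator elsewhere, or through presence, absence or copy number of the gene, which varies widely between potato genomes. It also follows growing and storage conditions, to which tubers respond strongly after harvest. The reference annotation numbers genes by an identifier, and none of the 200 identifiers matched the reference gene table or is described in the study's candidate or differentially expressed gene lists. Their products are therefore not named here.

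The 200 genes had a median share of 72.8% (69.3% to 91.2%), beside a median of 30.9% over the 17203 genes. The values declined smoothly at the limit, with 69.28% at rank 199, 69.27% at rank 200, 69.26% at rank 201 and 69.19% at rank 202. Membership is thus a cut through a continuous distribution, and 199 further genes had a share of 65% or more. The difference between the highest and the lowest family mean had a median of 2.29 on the log2(CPM+1) scale among the 200 genes, against 0.77 over the 17203. It reached 1 or more in 195 of the 200 genes and 2 or more in 133. The 200 genes were not quiet within families: their within-family SD had a median of 0.41 log2 units, beside 0.35 over the 17203 genes.

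**Figure D1:**
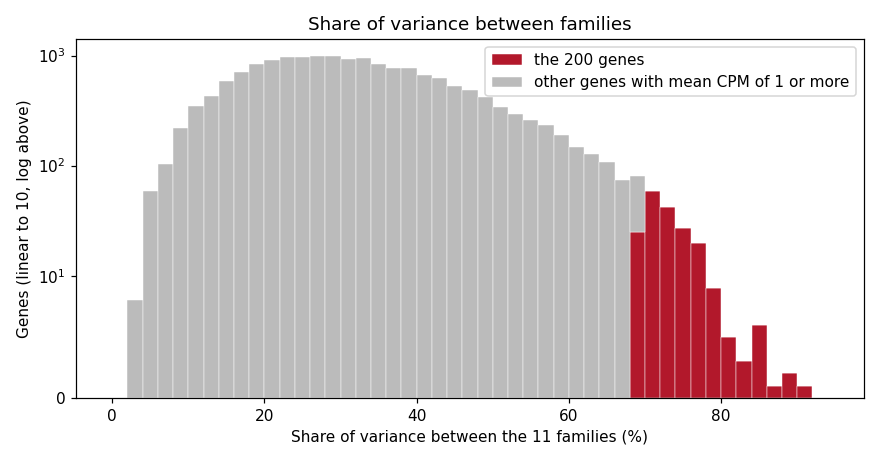
Number of genes (y axis, linear to 10 and logarithmic above) in bins of the share of variance between the 11 families (x axis, percent), with the 200 chosen genes in red and the other genes averaging 1 CPM or more stacked in grey. The red bars are the right-hand end of 1 continuous distribution, from 69.3% to 91.2%.

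The 200 genes were more strongly expressed than most. Their mean CPM had a median of 70.6 (1.29 to 1428), against 15.3 over the 17203 genes, and 177 of the 200 averaged 10 CPM or more. By quartile of mean CPM, from low to high, the 200 genes divided as 9, 26, 36 and 129. Over all tested genes the median share moved much less between these quartiles, at 27.1%, 30.5%, 33.4% and 33.5%. Only 12 of the 200 had any sample at 0 reads, and 1 had 20 or more such samples.

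Separation of samples by family was counted next. In 0 of the 200 genes did all samples of 1 family lie above or below every other sample. The background over the 17203 genes was 0.0233%, so the 0 is near that share and is not read as a result. This count does not cover separation between sets of families, which some genes described below showed. In 199 of the 200 the highest and the lowest family did not overlap, beside 29.4% of the 17203 genes. Both counts use the values that chose the genes and are a description.

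Family 2165 and family 2183 stood at the ends of most profiles. Each gene's outlying family was taken as the one whose mean lay farthest from the median of the 11 family means. Family 2165 was outlying and lower in 85 of the 200 genes (42.5%, against 8.21% of the 17203 genes), and outlying and higher in 0 of them (11.6% of the 17203). Family 2183 was outlying and higher in 44 of the 200, against 5.50% of the 17203. The other counts were near or under those over the 17203 genes. Family 2183 was outlying and lower in 21 (10.5%, against 13.7%), family 2177 in 13 (6.5%, against 6.00%), and family 2172 was outlying and higher in 8 (4.0%, against 4.82%). Family 2158 was outlying in 0 of the 200. By the lowest mean alone, family 2165 was lowest in 132 of the 200 genes, beside 13.9% of the 17203, and family 2183 in 27, beside 23.6%. By the highest mean, family 2183 was highest in 112 of the 200, beside 10.8% of the 17203. Family 2165 was highest in 13 of the 200, beside 21.5% of the 17203. These counts too describe the values that chose the genes.

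Most of the 200 genes followed a few shared profiles. The first 3 principal components of their log2(CPM+1) values held 54.6%, 14.1% and 10.1% of the variance. On seeing the outlying families, the genes were put into 3 groups. The first holds the 129 genes whose outlying family was 2165 (lower) or 2183 (higher), the second the 40 whose outlying family was 2175, 2177 or 2183 (lower), and the third the 11 whose outlying family was 2170 or 2172 (higher). The other 20 genes had assorted profiles.

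**Figure D2:**
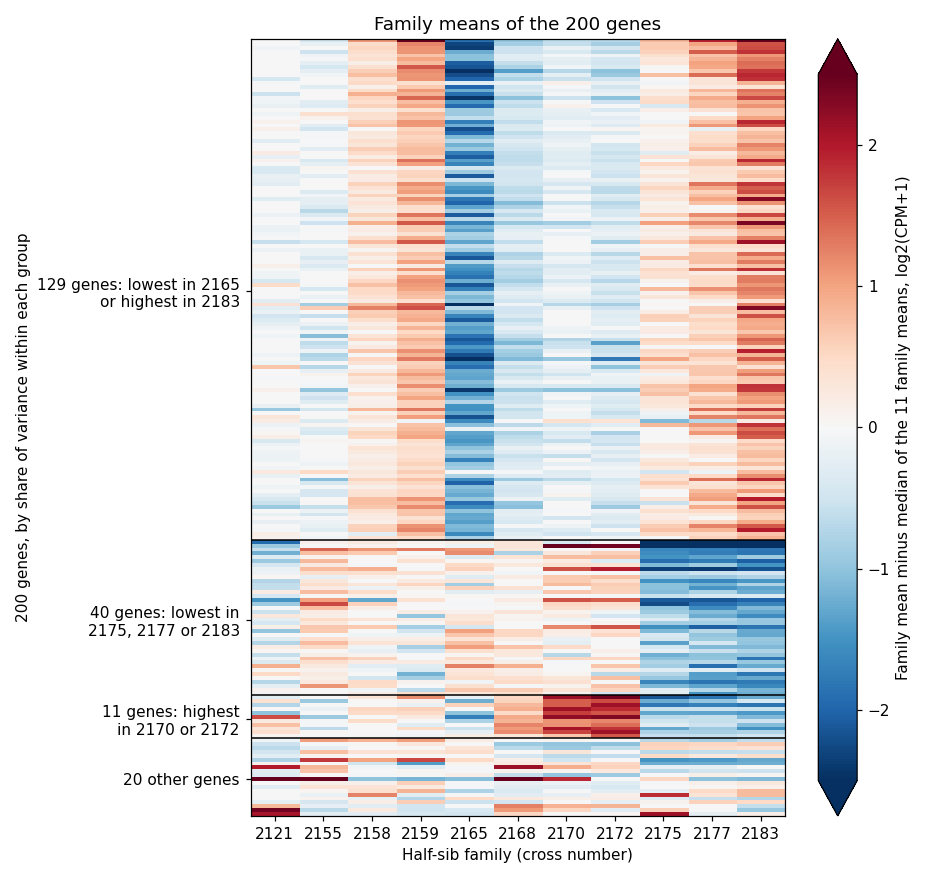
Family means of the 200 genes (rows, grouped by outlying family and ordered by share within a group) in the 11 families (columns), as the difference in log2(CPM+1) from the median of the gene's 11 family means; colours are capped at 2.5 in either direction. The 129-gene group is blue in family 2165 and red in families 2159, 2177 and 2183, and the 40-gene group is blue in families 2175, 2177 and 2183.

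In the 129-gene group, family 2165 was below the median family in 128 genes and family 2183 above it in all 129. The median deviation was -1.32 log2 units in family 2165 and 1.06 in family 2183. Family 2159 was above the median family in 128 of the 129 genes (median deviation 0.76), family 2177 in 122 (0.57) and family 2158 in 121 (0.34). Family 2168 was below it in 128 of the 129 (median deviation -0.48) and family 2172 in 123 (-0.38). The 85 genes whose outlying family was 2165 and the 44 whose outlying family was 2183 had nearly the same profile, with a Spearman correlation of 0.99 between the means of the 2 sets over the 100 samples, which share library and scaling.

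The mean log2(CPM+1) of the 129 genes was 7.41, 7.26, 7.40, 7.18 and 7.42 in the 5 samples of family 2183. In the 9 samples of family 2165 it ran from 4.44 to 5.46, with a median of 4.71. The ranges of these 2 families lay far apart, which describes the grouping, as the genes were grouped by these families. The other family medians lay between theirs. Family 2159, with 6.47 to 7.58 (median 7.05), overlapped family 2183, whereas family 2177, with 6.38 to 7.14 (median 6.83), did not. Family 2158 had a median of 6.64, family 2175 of 6.43 and family 2121 of 6.07. The medians of 2170 (6.04), 2155 (5.96), 2168 (5.75) and 2172 (5.74) were close to each other, and their ranges overlapped. Family 2168 was the most spread, from 4.75 to 6.34, and its lowest sample lay inside the range of family 2165.

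**Figure D3:**
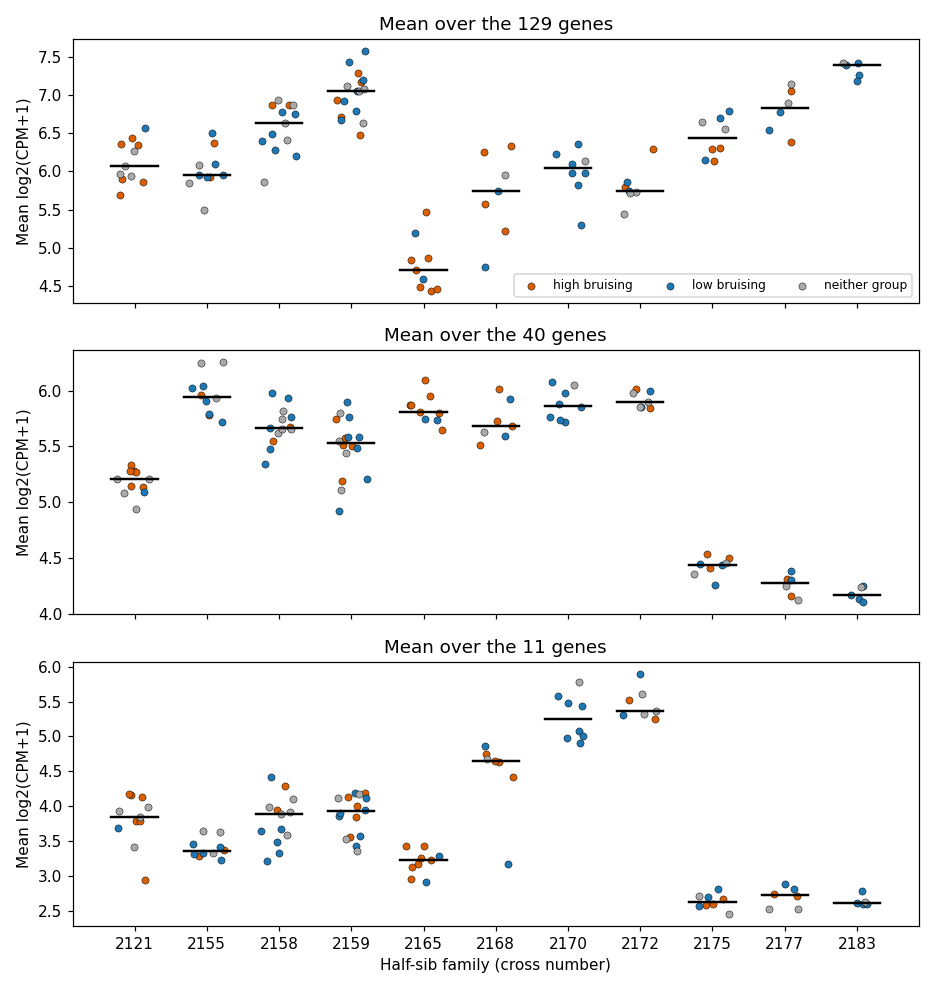
Mean log2(CPM+1) over the 129-gene, 40-gene and 11-gene groups (panels from top to bottom) in each of the 100 samples, by family; black bars are family medians, and colours give the bruising group. In the top panel family 2165 is lowest (median 4.71) and family 2183 highest (7.40); in the middle panel the samples of families 2175, 2177 and 2183 lie below those of every other family, and in the bottom panel those of 2170 and 2172 lie above.

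PGSC0003DMG400002204, whose outlying family was 2165 and whose share was 80.0%, shows this profile. It and PGSC0003DMG400019693 are the genes of largest share among the 85 whose outlying family was 2165 and the 44 of the group whose outlying family was 2183, a choice made after seeing their values. PGSC0003DMG400002204 had 5.68 to 15.4 CPM in family 2165 (median 6.90). In family 2183 it had 114, 144, 145, 157 and 159 CPM, and in family 2159 51.3 to 228 CPM (median 109). In the other families the medians lay between 23.1 CPM (2172) and 99.9 CPM (2177). The 9 samples of family 2165 overlapped only families 2168 and 2170, whose lowest samples had 11.1 and 13.8 CPM.

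PGSC0003DMG400019693 took much the same order of families at a lower level. It had 33.5, 36.7, 37.88, 50.04 and 56.5 CPM in family 2183, and 4.55 to 64.7 CPM in family 2159 (median 20.8). In family 2165 it had at most 0.163 CPM, with a median of 0. Per library, 3 counts were taken as an approximate upper limit of the expected count where 0 was read. They were worth 0.072 CPM in the deepest sample of the series and 0.439 CPM in the shallowest. In bulk tissue, fewer cells of a type and less RNA per cell cannot be told apart in such a difference.

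The 129 genes also moved together inside families. The rule used the size of the spread within families but not the correlation between genes. After family means were removed, the correlation between pairs of these genes over the 100 samples had a median of 0.54. The median was 0.14 within the 40-gene group, 0.28 within the 11-gene group, 0.15 over all pairs of the 200 genes and 0.01 over all pairs of the 17203. Of the 133 pairs of the 200 genes with a correlation above 0.8, 132 were within the 129-gene group. Pairs of a gene of the 129 with a gene of the 40 had a median of -0.16, and 106 of the 122 pairs below -0.5 were of this kind. These correlations are across genes in the same libraries and are descriptions. The 129 genes were grouped for a shared direction between families, whereas pairs over the 17203 genes were not, so the medians are not compared on equal terms.

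Measures of the libraries moved with the group means to differing degrees. Over the 100 samples the Pearson correlation of the 129-gene mean was 0.19 with log2 total count, 0.27 with the number of genes that had a read and -0.23 with the share of the 50 most counted genes. With the log2 TMM factor, which rescales library sizes for composition, it was -0.50, and -0.10 after family means were removed. The same step left 0.08 for log2 total count, 0.28 for the genes with a read and -0.21 for the 50 most counted genes. For the 40-gene mean the correlation was -0.36 with log2 total count and 0.67 with the log2 TMM factor. After family means were removed it was -0.06 with log2 total count and 0.29 with the log2 TMM factor. The 11-gene mean had -0.20 with the share of the 50 most counted genes, and -0.32 after family means were removed. The part of depth and composition in the differences between families was not tested beyond the alternatives given under the dependence on the processing. With TMM-scaled library sizes, family 2165 remained lowest and 2183 highest in the 129-gene group.

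In the 40-gene group, families 2175, 2177 and 2183 were below the median family in all 40 genes, with median deviations of -1.02, -1.20 and -1.26 log2 units. The mean of the 40 genes was 4.26 to 4.53 in family 2175, 4.12 to 4.38 in 2177 and 4.10 to 4.25 in 2183. The lowest sample of any other family was one of 2159, with 4.92, so these 19 samples were apart from the other 81. The 40 genes were grouped for low means in these families, so this separation describes the grouping and is no independent result. Family 2121 came next, with 4.94 to 5.33 (median 5.20). The remaining family medians lay between 5.53 (2159) and 5.95 (2155), with overlapping ranges.

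PGSC0003DMG400000048 had the largest share of all genes, 91.2%. It had 15.5, 16.6, 16.9, 17.5 and 20.9 CPM in family 2183. In family 2177 it had 14.0 to 31.9 CPM (median 19.3) and in family 2175 18.5 to 35.2 CPM (median 23.5). Family 2121 was also low, at 23.0 to 64.7 CPM (median 38.2). In the other 7 families the medians lay between 121 CPM (2170) and 184 CPM (2165), and their lowest sample had 82.8 CPM. The gene thus took 2 levels, with the 4 low families entirely below the 7 high ones.

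PGSC0003DMG400027180, with the second largest share of 89.6%, took 3 levels. The 19 samples of families 2175, 2177 and 2183 had 0.0502 to 1.63 CPM (median 0.588). The 15 samples of families 2170 and 2172 had 24.7 to 124 CPM (median 60.2). The other 66 samples lay between these, from 2.26 to 20.8 CPM, so none of the 3 sets of samples overlapped. It was the 1 gene of the 200 in which the samples of 2175, 2177 and 2183 all lay below every other sample (0.00581% of the 17203 genes). It was also 1 of 2 genes in which the samples of 2170 and 2172 all lay above every other sample (0.0116% of the 17203 genes). The gene with the next identifier, PGSC0003DMG400027181, was also among the 200, with a share of 83.7%. The log2 levels of the pair had a Pearson correlation of 0.89 over the 100 samples, and of 0.61 after family means were removed.

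**Figure D4:**
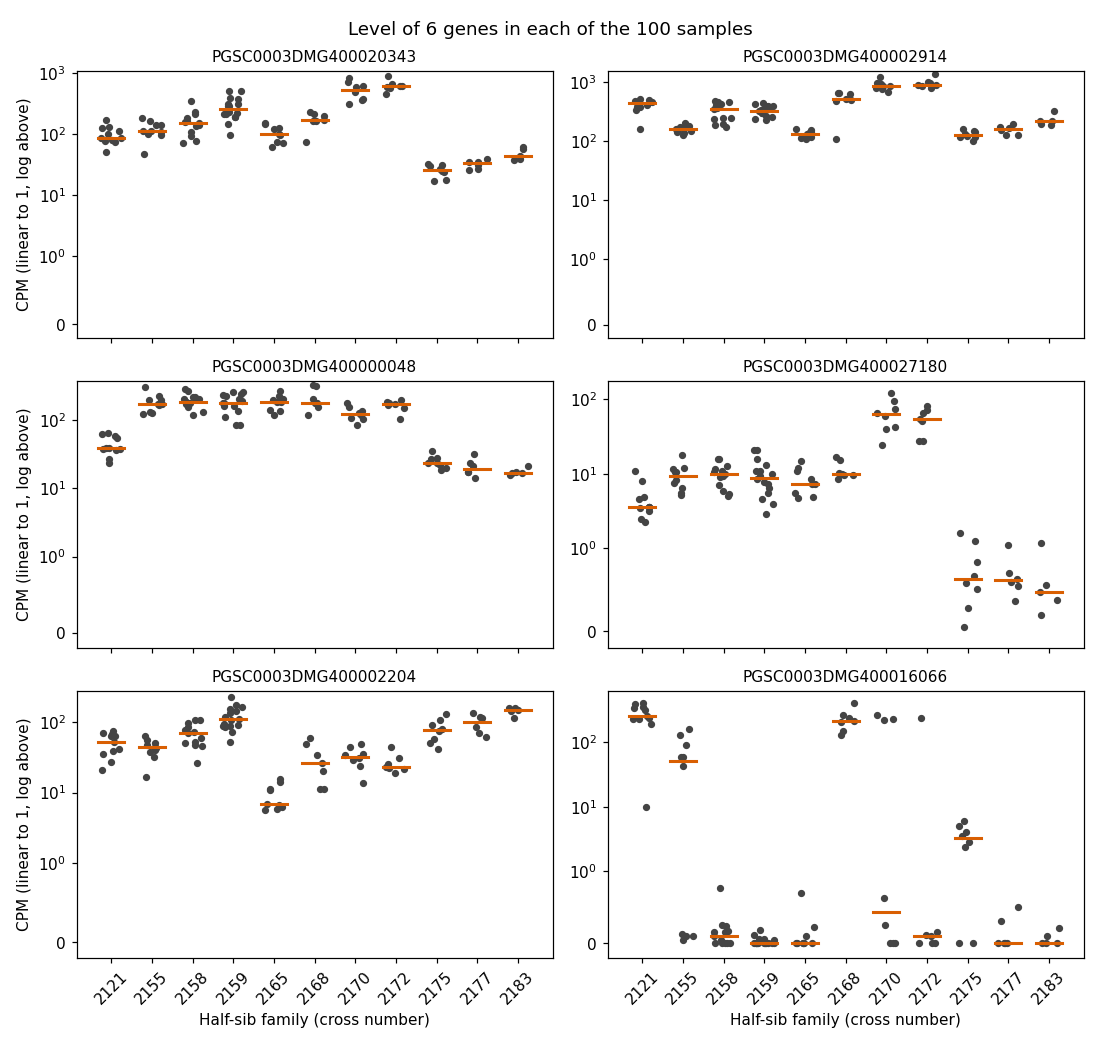
CPM (y axis, linear to 1 and logarithmic above) of 6 of the 200 genes in each of the 100 samples, by family; orange bars are family medians. PGSC0003DMG400000048 is low in families 2121, 2175, 2177 and 2183, PGSC0003DMG400027180 takes 3 levels that do not overlap, and PGSC0003DMG400016066 varies within families 2155, 2170, 2172 and 2175.

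The 11-gene group was highest in families 2170 and 2172. All 11 genes were above the median family in 2168, 2170 and 2172, with median deviations of 0.85, 1.69 and 1.82 log2 units, and below it in 2175, 2177 and 2183. The mean of the 11 genes was 5.25 to 5.89 in family 2172 and 4.91 to 5.79 in 2170. The highest sample of any other family was one of 2168, with 4.87. As the 11 genes were grouped for high means in 2170 or 2172, this separation too describes the grouping. Families 2175, 2177 and 2183 had medians of 2.63, 2.73 and 2.61, and their ranges overlapped.

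PGSC0003DMG400020343, with a share of 87.7%, is the gene of largest share whose outlying family was higher. It had 454 to 907 CPM in family 2172 (median 615) and 316 to 831 CPM in family 2170 (median 546). Family 2159 followed with 96.7 to 513 CPM (median 260.0). In families 2175, 2177 and 2183 the medians were 26.1, 33.4 and 45.01 CPM, and the highest sample of the 3 families had 62.6 CPM. Family means of the gene spanned 4.58 log2 units.

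PGSC0003DMG400002914, with a share of 84.9%, was the other gene in which the 15 samples of families 2170 and 2172 lay above all others. They had 663 to 1352 CPM (median 891), against 100.2 to 657 CPM (median 224) in the other 85 samples. The gap was narrow, since 1 sample of family 2168 had 657 CPM. Its lowest families were 2175 and 2165, with medians of 126 and 128 CPM and overlapping ranges.

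PGSC0003DMG400016066 had the widest distance between family means among the 200 genes, 7.71 log2 units, and was singled out for it after its values were seen. It had 1 CPM or more in all 7 samples of family 2168 (130.0 to 395 CPM) and in all 11 of family 2121 (10.0 to 400.0 CPM). Within 4 families it divided the siblings. In family 2155, 6 of 10 samples had 42.8 to 158 CPM and the others at most 0.125 CPM. In family 2170, 3 of 8 samples had 216 to 264 CPM, and in family 2172 1 of 7 had 232 CPM. In family 2175, 6 of 8 samples had 2.40 to 6.05 CPM and the other two had 0 reads. In families 2158, 2159, 2165, 2177 and 2183 all samples were below 1 CPM. Its share of 73.5% was thus reached with a within-family SD of 1.81 log2 units, the largest among the 200. Its neighbour by identifier, PGSC0003DMG400016067, was also among the 200, and the pair had a Pearson correlation of 0.91 over the 100 samples.

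Of the 200 genes, 25 had another of them within 10 identifier numbers, in 13 neighbouring pairs. Only the last digits of the identifiers were compared. No such count over the 17203 genes is given, so the number of pairs is not read as a result. Identifier numbers are not positions, and no position was used here. Over the 100 samples the correlation of these pairs ran from -0.74 to 0.93, so neighbours by number included pairs with opposite profiles.

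Some families adjacent in the order of cross numbers were among the most alike in these genes, with exceptions. The mean absolute difference between family means over the 200 genes was smallest for 2170 and 2172 (0.26 log2 units), then for 2168 and 2172 (0.34), 2175 and 2177 (0.37), 2168 and 2170 (0.40) and 2158 and 2159 (0.41), among 55 pairs of families. Of the 10 pairs of sequenced families adjacent in that order, most of which do not have consecutive numbers, 5 were among the 7 smallest differences. The difference was largest for 2165 and 2183 (2.09). That of the adjacent pair 2159 and 2165 (1.65) ranked 53 of 55, and that of the adjacent pair 2172 and 2175 ranked 37. Over the 17203 genes the pair 2170 and 2172 differed by 0.26 and the pair 2165 and 2183 by 0.55. The adjacent pairs 2168 and 2170 (0.25), 2155 and 2158 (0.26) and 2158 and 2159 (0.26) also differed little there. The adjacent pair 2159 and 2165 differed by 0.46. The likeness of adjacent families was thus not particular to the 200 genes. Families 2159, 2165 and 2168 have second parents that share 1 parent, V394. Their differences ranked 27 (2165 and 2168, 0.82), 42 (2159 and 2168, 1.11) and 53 (2159 and 2165) of the 55, from the smallest up. Cross number, parentage and any handling in the order of the crosses cannot be told apart here.

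None of the genes that the study lists as bruising candidates or as differentially expressed was among the 200. Of 97 such genes, 80 averaged 1 CPM or more, and their median share was 36.2%. The 200 are a small part of the 17203 genes, and that part alone would put few, if any, of the 80 among them. The absence of listed genes is therefore not read as a result. The 51 tested genes of the differentially expressed list, which the study chose on these samples, had a median share of 39.8%. The 29 tested candidates had a median of 24.0%. By family of candidates, the medians were 20.6% for 5 patatin genes, storage proteins of the tuber, and 20.8% for 8 protease inhibitor genes. For 4 polyphenol oxidase genes, whose enzymes oxidise phenolics to brown pigment, the median was 40.2%. For 3 phenylpropanoid genes, which supply those phenolics, it was 54.5%. The listed genes nearest to the 200 were N-acetylneuraminate-9-phosphatase on chromosome 10 (rank 222, 68.7%) and an RNA binding protein on chromosome 9 (rank 278, 67.3%). Both had family 2121 as outlying family.

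Some listed genes followed the 129-gene mean or ran opposite to it. PGSC0003DMG400003155, 4-coumarate CoA ligase, which activates hydroxycinnamic acids for lignin and other phenolics, had a Pearson correlation of 0.76 with it over the 100 samples and of 0.67 after family means were removed. PGSC0003DMG400014223, 4-coumarate CoA ligase 2, had 0.75 and 0.39. PGSC0003DMG400004667, Rhg4-like receptor kinase II, had 0.77 and 0.54. In the opposite direction, PGSC0003DMG400009885, a pentatricopeptide repeat-containing protein, had -0.64 and -0.32, PGSC0003DMG400021423, homeodomain leucine-zipper 1, had -0.64 and -0.41, and a DnaJ protein had -0.61 and -0.57. They were singled out for these correlations, which are descriptions over 80 listed genes. Correlations with the 129-gene mean over the 17203 genes are not given for comparison. The receptor kinase, pentatricopeptide repeat, homeodomain and DnaJ genes come from the list that the study chose on bruising in these samples. As the bruising groups were spread unevenly over the families, that choice was not independent of the 129-gene mean.

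The comparison that the study was built for, high against low bruising, was then read in the 200 genes. The bruising groups were spread unevenly over the families. Family 2165 gave 7 samples to the high-bruising group and 2 to the low-bruising group, and family 2121 6 and 1. Families 2170 and 2183 gave 0 to the high-bruising group and 7 and 4 to the low-bruising group. The comparison is therefore not independent of the rule, and a second fit had cross as a term, so that bruising groups were compared within families.

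With no covariate, 0 of the 200 genes passed an adjusted p of 0.05 (quasi-likelihood test of edgeR, Benjamini-Hochberg adjusted over 25163 genes), where 0.183% of all genes did. DESeq2 and limma-voom also called 0 of the 200, beside 58 and 0 of all 25163 genes. These counts of 0 are near the shares over all genes and are not read as a result. At an unadjusted p under 0.05 there were 66 of the 200, against 12.4% of all genes. Of these, 59 were lower in high-bruising samples (6.42% of all genes) and 7 higher (5.94% of all genes). All 59 belonged to the 129-gene group. This fit treated siblings of a family as independent samples, so its p-values leave family structure out of account. The median log2 fold change of the 200 genes was -0.28 and that of the 129 genes -0.36, beside 0.00 over all genes. The count of 66 depended on single families: it was 12 without family 2165, 18 without 2183, 23 without 2121 and 107 without 2170. Over all 25163 genes the count was 3110 in this fit, 2178 without family 2165, 2512 without 2183, 2146 without 2121 and 3345 without 2170. It thus also fell over all genes without 2165, 2183 or 2121.

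With cross as a term the same test called 0 of the 200 genes, as it did of all genes (0%), and at an unadjusted p under 0.05 there were 8, against 5.34% of all genes. Of the 8, 5 were higher in high-bruising samples (2.65% of all genes) and 3 lower (2.68%). The median log2 fold change of the 200 genes was then -0.01 and that of the 129 genes -0.02. The difference between the fits was not itself tested.

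**Figure D5:**
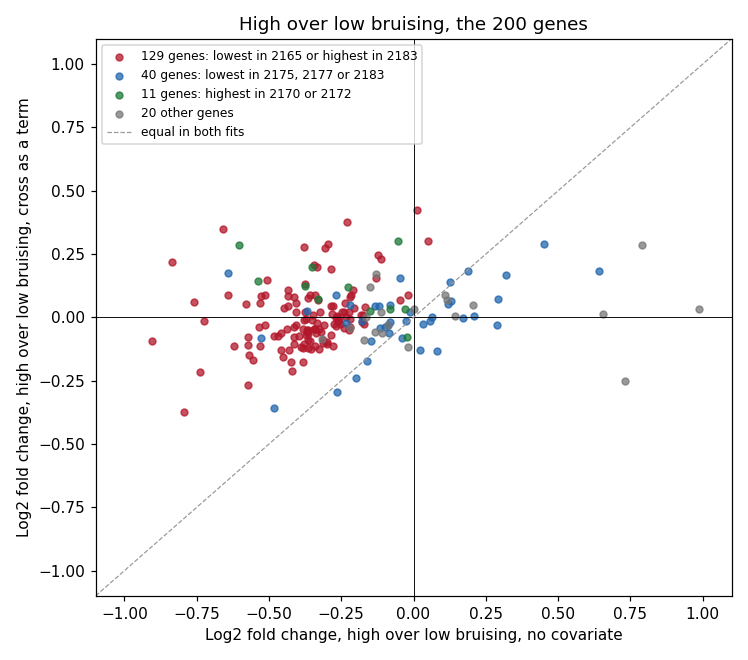
Log2 fold change of high over low bruising for the 200 genes with no covariate (x axis) and with cross as a term (y axis), coloured by group; the dashed line marks equal values. Of the 129-gene group, 127 genes lie left of 0 on the x axis (median -0.36) and 2 right of it, and the group lies around 0 on the y axis (median -0.02).

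The mean of the 129 genes was 4.44 to 7.29 (median 6.30) in high-bruising samples, against 4.60 to 7.58 (median 6.40) in low-bruising samples, and the groups overlapped nearly completely. Of the 9 families with samples in both groups, the high-bruising mean was below the low-bruising mean in 4 and above it in 5. The 129-gene mean of family 2168 was 5.85 in 4 high-bruising samples and 5.25 in 2 low-bruising samples, which had 4.75 (genotype 2168_1) and 5.75. That of family 2175 was 6.25 in 3 high-bruising and 6.54 in 3 low-bruising samples. The 40-gene and the 11-gene means were each lower in high-bruising samples in 4 of the 9 families and higher in 5.

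PGSC0003DMG400030463 had the smallest p of the 200 genes and was singled out for it. It had 8.12 to 49.9 CPM (median 21.8) in high-bruising samples, against 6.20 to 30.5 CPM (median 17.9) in low-bruising samples. With no covariate it differed by 0.45 on the log2 scale (adjusted p = 0.0853 by edgeR). With cross as a term it differed by 0.29 (unadjusted p = 0.00293, adjusted p = 0.624). By family it was lowest in 2183 (6.20 to 9.66 CPM) and highest in 2165 (19.4 to 49.9 CPM). The 4 genes named by the rule had log2 fold changes between -0.64 and -0.03 with no covariate, and adjusted p between 0.548 and 0.981 by edgeR. With cross as a term the sign turned in 3 of the 4, which then had 0.12, 0.13 and 0.18, and the fourth had -0.01.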

How the data were processed

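Reads were cleared of ribosomal sequence (SortMeRNA), trimmed (BBDuk) and aligned to the PGSC-DM genome (STAR 2.6.1) by the authors, who deposited the raw count of reads per gene, after dropping genes with low counts. Quality was checked with FastQC 0.11.7, per the submitters' processing notes. STAR counts uniquely aligned reads, so near-identical paralogs and alleles unlike the reference can lose reads, and this part was not tested. The strand setting of the counting is not given in the sources used here. All 100 columns were mapped to samples, and 0 were left out.

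CPM was the count divided by the column total and scaled to 1000000 reads, and shares were computed on log2(CPM+1) for genes averaging 1 CPM or more. High- and low-bruising samples (33 and 41) were compared by the quasi-likelihood test of edgeR 4.0.16 (R 4.3.3) after TMM scaling, at a Benjamini-Hochberg adjusted p of 0.05 over 25163 genes, without covariate as in the study and with cross as a term. DESeq2 1.42.0 and limma-voom (limma 3.58.1) were alternatives, and both kinds of script were tested on simulated data. There edgeR, run without a filter on low counts, called more unchanged genes than its threshold allows, nearly all of them averaging under 1 CPM. Each genotype was sequenced once, so p-values measure the spread between genotypes, plants and libraries together. In the fit without covariate that spread also includes the one between families, and siblings were treated as independent samples.

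Genes named by rule were members described in the study's lists or the reference table (none) and, of the others, the 2 of largest share whose outlying family was higher and the 2 whose outlying family was lower. Members, groups and lists were chosen with earlier results of these data known. Names of listed genes come from the study's tables; 0 of 25163 identifiers matched the reference table. Of the 46 genes called without covariate, 32 averaged under 1 CPM and 14 averaged 1 CPM or more, so the share of all genes called is uncertain.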

Additional observations from a re-analysis of the deposited data

Results flagged for a closer look

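In 88 sets of samples of 1 family (8 families of 5 to 10 samples, 8 genes and the 3 group means), 9 values stood far from the rest of their family. Chance gives about 1 in 20 for independent sets of evenly behaved values. These sets are not independent, as PGSC0003DMG400020343 and PGSC0003DMG400002914 belong to the 11-gene group. PGSC0003DMG400016066 had 37 samples at 0 reads. The 9 is therefore not compared with that rate. Genotype 2168_1 had a mean log2(CPM+1) of 3.17 in the 11-gene group, against 4.42 to 4.87 in the other samples of family 2168. In the same genotype PGSC0003DMG400020343 had 6.25 (7.36 to 7.88 in the others) and PGSC0003DMG400002914 6.79 (8.88 to 9.36 in the others), both on the log2(CPM+1) scale. Genotype 2183_5 had 2.79 in the 11-gene mean, against 2.596 to 2.637 in the others of its family. PGSC0003DMG400020343 had 5.62 in genotype 2155_7 (6.65 to 7.54 in the others). PGSC0003DMG400000048 had 6.69 in genotype 2172_4 (7.22 to 7.60 in the others). PGSC0003DMG400002204 had 4.16 in genotype 2155_5 (5.06 to 6.00 in the others). PGSC0003DMG400016066 had 7.86 in genotype 2172_1 (0 to 0.21 in the others) and 0.77 in genotype 2165_2 (0 to 0.29 in the others).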

How the results depend on the processing

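The choice of the 200 genes kept 144 to 200 of them under 21 of 23 alternatives. It kept 117 without family 2165 and 76 with biological replicate 2 samples alone. Of the 39 replicate 2 samples, 38 in 10 families were used there. Family 2165 was left out, as it had 8 replicate 1 samples and only 1 replicate 2 sample. The median share of the same 200 genes was 65.5% without family 2165, 68.5% with bruising group removed first and 78.5% with biological replicate 1 samples alone, and 68.8% to 74.7% under the other alternatives. Leaving out 1 sample at a time kept 185 to 197 genes, with a median share of 71.8% to 73.6%. With TMM-scaled library sizes 175 were kept, and 1 gene, PGSC0003DMG400022450, had a family apart from every other sample: 0.394 to 2.64 CPM in family 2165 against 2.77 to 43.2 CPM in the others. With this scaling 3 of all tested genes had a family apart. Both counts use the kind of values that chose the genes and are a description. In a check chosen after seeing the data, the 200 genes of largest share in replicate 1 samples had a median share of 61.2% in replicate 2 samples, against 40.2% over all tested genes, and those chosen on replicate 2 samples had 64.5% in replicate 1 samples, against 36.5%. Only 39 genes were in both of these sets of 200. Both sets of samples hold siblings of the same families, so genotype and anything done family by family cannot be told apart in this check.

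In the bruising comparison 0 of the 200 genes were called in 19 of 20 alternatives, and 1 at an adjusted p of 0.1. The count over all genes at an adjusted p of 0.1 is not given, so that 1 is not read as a result. The number at an unadjusted p under 0.05 was 8 with cross as a term (median log2 fold change -0.0067), 12 without family 2165, 18 without 2183, 23 without 2121 and 107 without 2170, and 48 to 85 elsewhere. The matching counts over all genes without these families are given above. Over all genes the count of calls was 46 with no covariate, 58 with DESeq2, 0 with limma-voom, 3 with filterByExpr and 14 without family 2121. It was 28 with the replicate block and 28 without family 2183, 30 without 2155, 25 without 2159 and 85 without 2168. The replicate numbers mark different genotypes and pair no samples: the correlation between families of the difference between numbers had a median of -0.01 (-0.14 to 0.24). Under the replicate block 189 genes were kept with a median share of 71.7%, and 64 genes had an unadjusted p under 0.05 (median log2 fold change -0.28), 0 of them called, with or without cross. At the shallowest sample 3 counts are 0.439 CPM, so levels near or under this rest on few reads.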
